A study of Arabidopsis thaliana with 18 samples.

Results

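The class III peroxidases are the secretory heme peroxidases of plants, and 60 Arabidopsis thaliana genes of this family, listed by their locus identifiers, were followed here among the 27416 genes counted in 18 RNA-seq libraries. All 60 were present in the count tables and in the TAIR10.1 annotation, where 11 of them carry a gene symbol. The libraries were made from polyA RNA of whole seedlings that had grown for 7 days on vertical plates and were then moved to liquid medium for 6 h. The liquid held either DMSO, the solvent control, or 5 µg/mL tunicamycin (TM). The 3 genotypes were wild type (WT), ire1b and ire1a ire1b (ire1a1b below), and each of the 6 groups of genotype and treatment had 3 libraries numbered as replicates 1 to 3. Nothing in the labels says whether replicates came from separate sowings or pools, and a p-value here reflects only how far these libraries spread, which may be technical.

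Class III peroxidases enter the endoplasmic reticulum (ER) through a signal peptide, fold there around disulfide bonds, heme and calcium, receive N-linked glycans and are exported to the cell wall or the vacuole. Outside the cell they use hydrogen peroxide to cross-link lignin precursors and wall proteins, or they form reactive oxygen species themselves, and members are known in defence, root hair growth and the lignin barriers of xylem and endodermis. Tunicamycin blocks the first step of N-linked glycosylation, so that unfolded glycoproteins accumulate in the ER. IRE1A and IRE1B are ER-resident kinases and ribonucleases that sense this state, splice the messenger RNA of the transcription factor bZIP60 and can cleave other messenger RNAs at the ER. The design asks how the TM response of a gene differs when one or both sensors carry a mutation.

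The libraries held between 16347549 and 24848852 reads counted on genes, and the family took between 0.218% and 0.662% of them. IRE1A stood at 79.7 to 93.1 CPM (a read count scaled by the normalised library size) in WT, at 89.2 to 103 in ire1b and at 19.9 to 24.7 in the libraries labelled ire1a1b, a fall of 2.01 on the log2 scale in DMSO (adjusted p = 4.7e-10, edgeR quasi-likelihood test). IRE1B (IRE1-1 in the annotation) was counted at 28 to 36.7 CPM in WT and at 35.5 to 47.4 CPM in the libraries labelled ire1b or ire1a1b, so its transcript level does not check those labels. The 4 replicate 1 libraries of WT and ire1a1b lay apart from the other 14 on the second principal component, which carried 20.7% of the variance, and several highly expressed peroxidases were lower in them. In WT with DMSO, 6 of the 37 members with a mean of at least 10 CPM were under 0.5 times the mean of the other two libraries in replicate 1. Counts of called members with TM are given with and without these libraries.

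In WT seedlings with DMSO the family was dominated by a few genes. Per kilobase of exon, PRXR1 (AT4G21960) was highest with 539 CPM per kb, followed by AT5G64120 with 408, AT5G39580 with 366 and AT3G32980 with 292 CPM per kb. These genes together supplied 49.3% of the summed family level, and their order among neighbours was not firm, since AT5G64120 varied between 275 and 713 CPM and AT5G39580 between 253 and 592 CPM across the WT libraries. At the other end, 52 members had at least 1 CPM per kb, 35 had at least 10 and 8 had at least 100. The 5 members too low to be tested were AT1G24110, AT3G50990, AT4G17690, AT5G19880 and AT5G58400, none above 0.164 CPM in any library, and the counts that follow are over the 55 others. A member can pass that filter through a single group of libraries.

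TM lowered most of the tested family in WT. The summed level of all 60 genes was 4050 to 5700 CPM in the DMSO libraries and 2120 to 2440 CPM in the TM libraries, so that the 2 groups did not overlap. Of 55 tested members 37 fell and none rose at an adjusted p below 0.05, against 5.77% of all 20615 tested genes that fell and 6.13% that rose. With DESeq2 the counts were 37 and 0, and all 55 fitted log2 changes were below zero, from -2.49 to -0.03. The median log2 change over the tested members was -0.94, beside -0.017 over all tested genes. In a bulk sample, fewer cells of a type and less RNA per cell cannot be told apart.

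**Figure D1:**
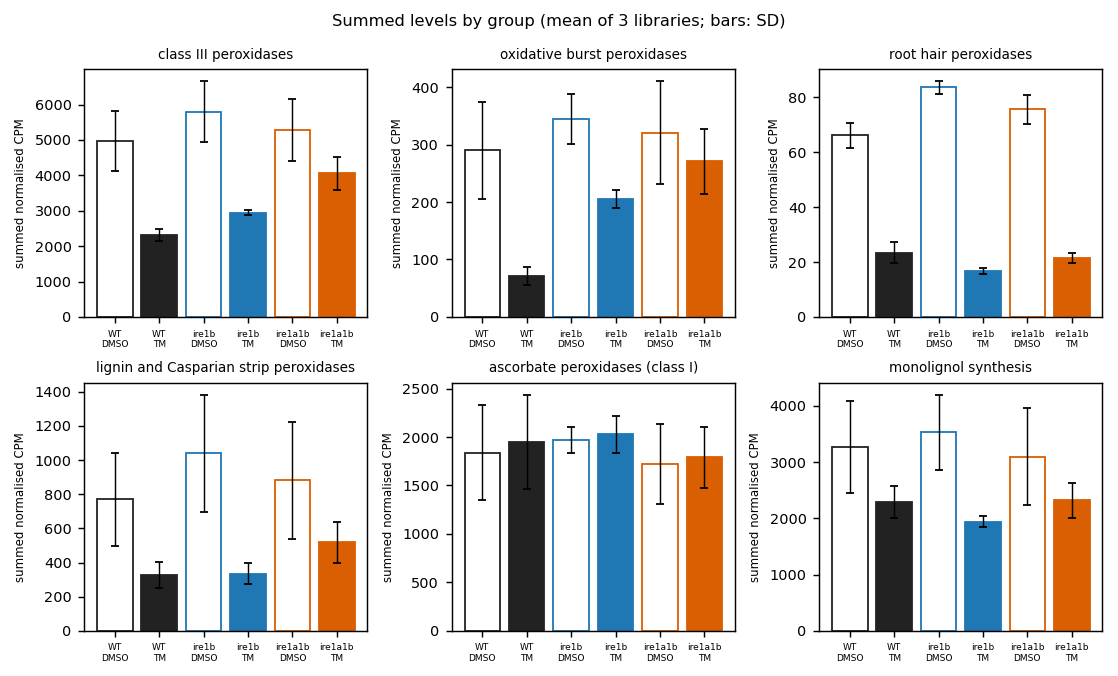
Summed normalised CPM of the 60 peroxidases, of 3 role groups among them and of 2 reference lists, as the mean of 3 libraries per group with the SD as error bars; open bars are DMSO and filled bars TM. The whole family fell from 4980 to 2320 CPM in WT and stood at 4060 CPM in ire1a1b with TM, while the ascorbate peroxidases stayed between 1720 and 2030 CPM.

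The summed level with TM was higher in the mutants than in WT, a difference that was not tested. In ire1b the summed level was 5210 to 6790 CPM with DMSO and 2860 to 3020 CPM with TM. In ire1a1b it was 4260 to 5840 CPM with DMSO and 3570 to 4490 CPM with TM, and here the groups overlapped. In ire1b 33 tested members fell and 2 rose, beside 11.6% and 10.9% of all genes, with a median of -0.98. In ire1a1b 22 fell and 3 rose, beside 6.59% and 8.27% of all genes, with a median of -0.39. Without the 4 replicate 1 libraries 40 members fell in WT, 35 in ire1b and 24 in ire1a1b. Shares of all genes are not given for that fit, so these counts show only how far the calls moved.

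**Figure D2:**
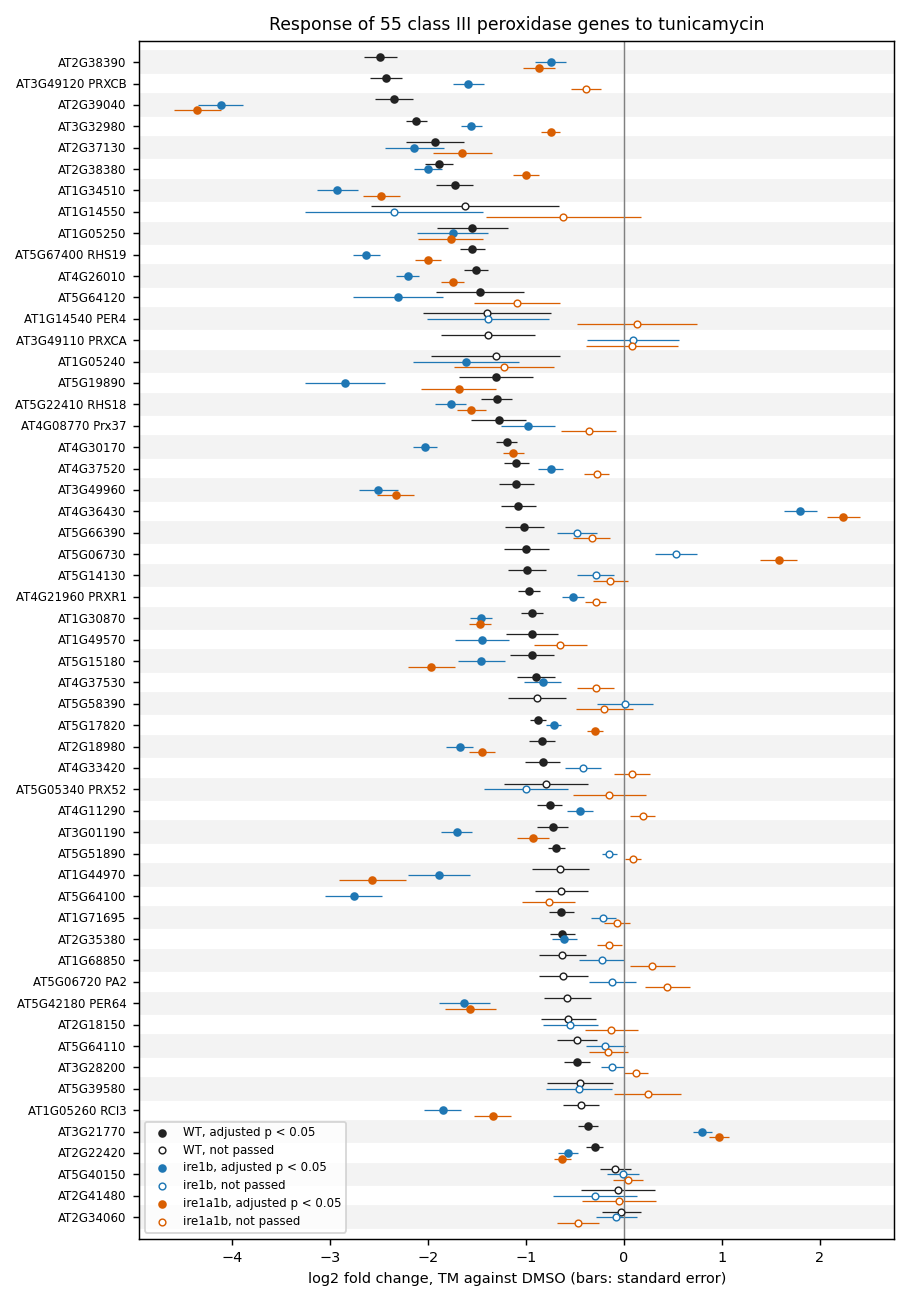
Log2 fold change with TM against DMSO for the 55 tested members, ordered by the WT value, in WT (black), ire1b (blue) and ire1a1b (orange); bars are standard errors and filled points passed an adjusted p of 0.05. All 55 WT points lie below zero, while AT4G36430, AT3G21770 and AT5G06730 lie above zero in both mutants. PRXCA lies just above zero in both (0.09 in ire1b and 0.08 in ire1a1b).

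The genotypes were compared by the interaction, the log2 response to TM in a mutant minus that in WT. For ire1a1b against WT, 13 members were higher (less lowered or raised) and 3 were lower, beside 3.7% and 2.43% of all tested genes, with a median difference of 0.48. Without the 4 replicate 1 libraries the counts were 17 and 3. The replicate number was also fitted as a block, a set of shifts shared by all 18 libraries. Same-numbered libraries of WT and ire1a1b deviated together. Those of ire1b and WT had correlations down to 0.05, so the shared block is less apt for ire1b. With this block 21 were higher and 7 lower. The block also raised the share of all genes called lower with TM in every genotype, so this gain is not read as one of the family alone. For ire1b against WT, 7 were higher and 10 lower, beside 2.55% and 1.6% of all genes, with a median of -0.01; without the 4 replicate 1 libraries 10 were higher and 9 lower. For ire1a1b against ire1b, 5 were higher and 0 lower, beside 0.184% and 0.592% of all genes. DESeq2 also called 5 and 0. In edgeR 14 members had an unadjusted p below 0.05, a count without the share of all genes and not read as a result. That count of 5 became 2 when replicate 1 of ire1b with TM was left out and 3 when replicate 3 was. Shares of all genes are not given for the interactions in these alternative fits, so the alternative counts show only how far the calls moved. The 3 interactions share libraries, so their values are given side by side and not as separate evidence.

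**Figure D3:**
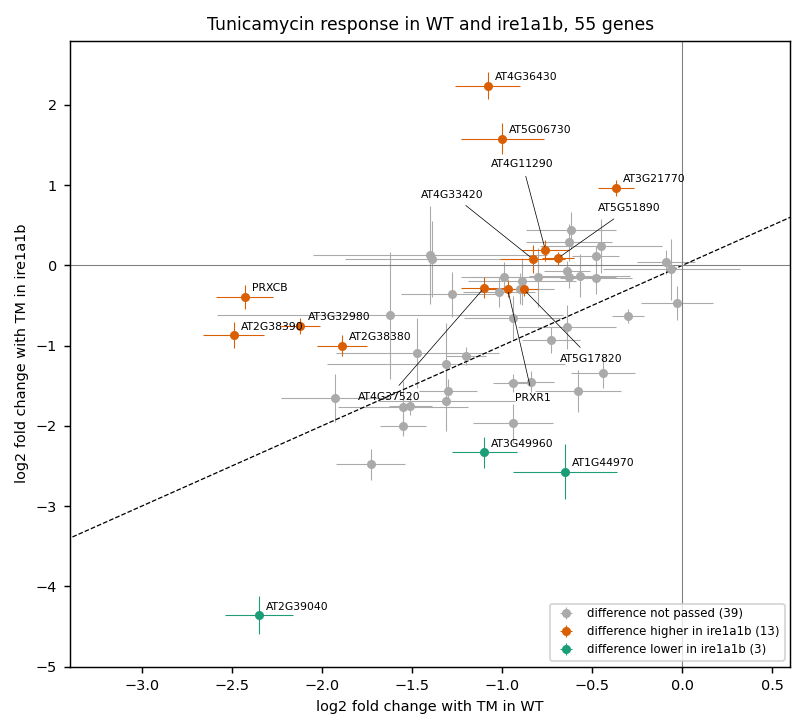
Log2 fold change with TM in WT (horizontal) against that in ire1a1b (vertical) for 55 members, with standard errors; the dashed line marks equal responses. The 13 members with a higher response in ire1a1b (orange) lie above the line, led by AT4G36430 at -1.08 and 2.24, and the 3 with a lower response (green) lie below it.

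Sorting the members by their calls gave 18 that fell in WT and were not called lower in ire1a1b and 19 that fell in all 3 genotypes, beside 3.58% and 2.08% of all tested genes in the same classes. Of the 18, 9 also fell in ire1b. The 3 members RCI3 (AT1G05260), AT1G44970 and PER64 (AT5G42180) fell in both mutants without a call in WT, AT1G05240 and AT5G64100 fell in ire1b alone by this rule, and 13 had no fall called. Absence of a call is no test of a difference. In the interaction of ire1a1b with WT, 9 of the 18 members were called higher. Of the 19 that fell in all genotypes, 4 were called higher and 2 lower, beside 3.7% and 2.43% of all tested genes. The classes and the interaction use the same libraries, and a fall called in WT but not in ire1a1b favours a higher interaction. These counts describe the classes and are no separate support. The cut ran between close values, with AT5G17820 just inside the fallen class in ire1a1b (log2 change -0.3, adjusted p = 0.025) and PRXR1 just outside it (-0.29, adjusted p = 0.085). When each comparison was fitted on its own groups alone, the class of 18 held 10 members. With the replicate block 41 members fell in WT, 36 in ire1b and 26 in ire1a1b, beside 10.4%, 16.5% and 11% of all genes, and the classes held 18 and 23. PRXCB, PRXR1, AT5G64100 and AT5G64120 then fell in ire1a1b too, and PRXCA, RCI3, PA2 and AT5G58390 fell in WT. Without the 4 replicate 1 libraries the classes held 19 and 21, counts given without the shares of all genes. Leaving out 1 library moved the class of 18 between 14, without replicate 2 of WT with DMSO, and 19.

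PRXCA (AT3G49110, chr3:18200587-18203265, plus strand) and PRXCB (AT3G49120, chr3:18207651-18210333, plus strand) are the apoplastic peroxidases behind much of the oxidative burst that follows recognition of microbes. They lie 4385 bases apart and their proteins are 92.7% identical. PRXCB stood at 157, 204 and 248 CPM in WT with DMSO and at 35, 38.4 and 39.8 CPM with TM. Every TM library lay below every DMSO library, a fall of 5.37-fold (log2 -2.43, SE 0.16, adjusted p = 3.4e-08). In ire1b the values were 204, 217 and 245 CPM with DMSO and 66.8, 77.2 and 76.4 CPM with TM, again without overlap (log2 -1.59, SE 0.16, adjusted p = 1.9e-06). In ire1a1b they were 180, 265 and 247 CPM with DMSO and 161, 191 and 175 CPM with TM, and the groups overlapped (log2 -0.39, SE 0.15, adjusted p = 0.11). With the replicate block that small fall passed (log2 -0.38, adjusted p = 0.0071). The response of PRXCB differed from WT by 2.03 (SE 0.22, adjusted p = 2.5e-05) in ire1a1b and by 0.83 (SE 0.22, adjusted p = 0.044) in ire1b, and the mutants differed by 1.2 (SE 0.22, adjusted p = 0.012, and 0.05 without replicate 1 of ire1b with TM). The ire1b difference from WT lost its call when any of 13 single libraries was left out (adjusted p from 0.055 to 0.11). These were all 6 TM libraries of WT and ire1b, replicates 2 and 3 of WT with DMSO, replicates 1 and 2 of ire1b with DMSO, and, in ire1a1b, replicate 3 with DMSO and replicates 2 and 3 with TM.

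PRXCA also had a negative change in WT, with less certainty. In ire1b PRXCB changed by -1.59 on the log2 scale and PRXCA by 0.09, and this difference between the genes was not tested. PRXCA was counted at 40.1, 110 and 113 CPM in WT with DMSO and at 18.2, 39.7 and 42.6 CPM with TM. Replicate 1 was low under both treatments, so the groups overlapped and the fall did not pass (log2 -1.39, SE 0.48, adjusted p = 0.079). With the replicate block, which compares same-numbered libraries, it did (log2 -1.35, adjusted p = 0.0048), and without the 4 replicate 1 libraries it did too (log2 -1.43, adjusted p = 2.9e-05). In ire1b the values were 97.5, 131 and 143 CPM with DMSO and 121, 143 and 131 CPM with TM. In ire1a1b they were 37.6, 112 and 121 CPM with DMSO and 47.4, 128 and 111 CPM with TM. Neither mutant showed a separation of the groups, and the interaction of ire1a1b with WT was 1.46 (SE 0.67, adjusted p = 0.28), called with the block (adjusted p = 0.029) and without those 4 libraries (1.47, adjusted p = 6e-04).

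The closest relatives of this pair in the list had related profiles. AT3G32980 (chr3:13526071-13530098, minus strand), 89% identical to PRXCB, stood at 418, 443 and 488 CPM in WT with DMSO and at 107, 107 and 96 CPM with TM. Its TM values were 176, 190 and 146 CPM in ire1b and 242, 299 and 240 CPM in ire1a1b, below the DMSO values of 499 to 508 and 415 to 460 CPM. It therefore fell in all 3 genotypes, by 2.12, 1.56 and 0.75 on the log2 scale in WT, ire1b and ire1a1b, with adjusted p = 9.1e-10, 2.2e-08 and 1e-04 in edgeR. The fall was smaller in ire1a1b than in WT by 1.37 (SE 0.15, adjusted p = 2.4e-05) and smaller than in ire1b by 0.81 (SE 0.15, adjusted p = 0.013). The ire1b difference from WT, 0.56 (adjusted p = 0.043), lost its call without any of 12 libraries (adjusted p up to 0.12), which were all in WT and ire1b except replicate 1 of WT with DMSO and replicate 3 of ire1b with TM, and replicates 2 and 3 of ire1a1b with DMSO. Prx37 (AT4G08770), 75.3% identical to PRXCB, stood at 78.3, 151 and 185 CPM in WT with DMSO and at 45.8, 55.3 and 69.5 CPM with TM (log2 -1.28, SE 0.28, adjusted p = 0.0075). Its interaction with ire1a1b, 0.93, did not pass (adjusted p = 0.23); it passed with the block (adjusted p = 0.0062) and without replicate 1 of WT with DMSO (1.2, adjusted p = 0.032).

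AT2G38380 and AT2G38390 lie in the same orientation on chromosome 2, 897 bases apart (chr2:16076289-16078781 and chr2:16079679-16081671, plus strand), encode proteins that are 89.4% identical, and come next in likeness to PRXCB. Their longest identical coding run is 62 bases, shorter than the 250 nt reads, so most reads could be placed. The first 60 coding bases, which encode the start of the signal peptide, are shown because only AT2G38390 had an ire1b response called different from WT. Capitals mark the 6 bases at which the neighbours differ.
AT2G38380: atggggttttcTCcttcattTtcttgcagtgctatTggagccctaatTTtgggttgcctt
AT2G38390: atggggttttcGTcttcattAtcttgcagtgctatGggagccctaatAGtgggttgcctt

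AT2G38390 stood at 62.2, 56 and 75 CPM in WT with DMSO and at 11.3, 11.6 and 11.4 CPM with TM, the largest fall of a member in WT (5.62-fold, log2 -2.49, SE 0.17, adjusted p = 5.3e-08). Its TM values were 45.5, 41.3 and 31.8 CPM in ire1b and 34.9, 38 and 38.9 CPM in ire1a1b. All 6 mutant TM libraries lay above all WT TM libraries and below their own DMSO libraries (55.4 to 76.4 CPM and 59.2 to 85.2 CPM). The response differed from WT by 1.75 (SE 0.23, adjusted p = 0.00027) in ire1b and by 1.63 (SE 0.23, adjusted p = 0.00037) in ire1a1b. AT2G38380 stood at 244, 277 and 282 CPM in WT with DMSO and at 66.1, 79.4 and 70.4 CPM with TM. In ire1b its values were 320, 328 and 308 CPM with DMSO and 76.9, 92.2 and 70.5 CPM with TM, a response that did not differ detectably from WT (log2 -0.1, SE 0.19, adjusted p = 0.94). In ire1a1b they were 228, 305 and 266 CPM with DMSO and 119, 160 and 120 CPM with TM, a smaller fall than in WT by 0.89 (SE 0.19, adjusted p = 0.0084). Against ire1b the difference was 0.99 (adjusted p = 0.018); it lost its call without replicate 2 of ire1b with DMSO or replicate 1 or 3 of ire1b with TM (adjusted p up to 0.062). The difference between the 2 genes was not tested.

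**Figure D4:**
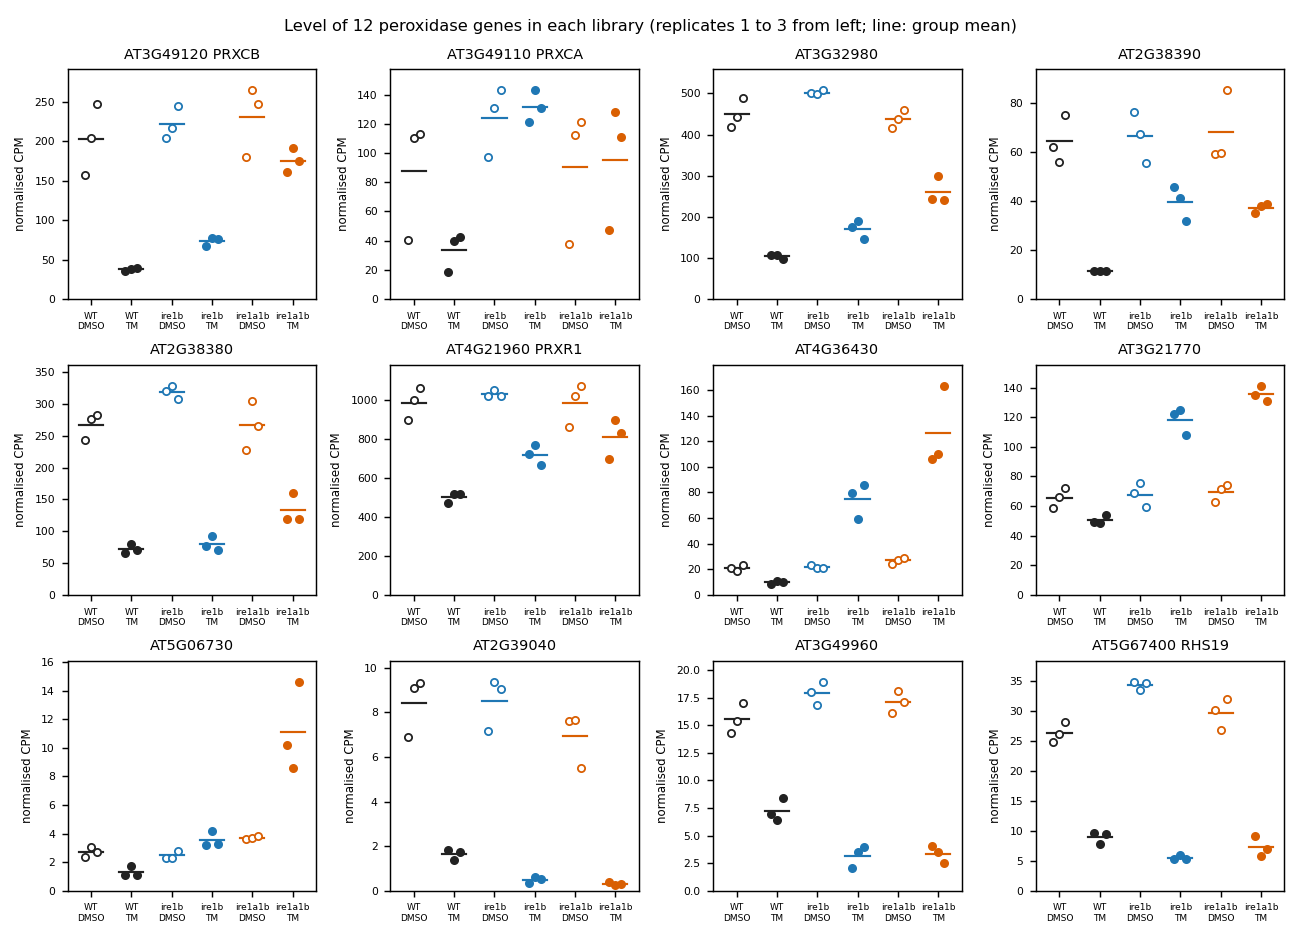
Normalised CPM of 12 members in all 18 libraries; points are replicates 1 to 3 from left to right, open for DMSO and filled for TM, and lines are group means. The falls of PRXCB, AT3G32980 and AT2G38390 are smaller in both mutants than in WT, and the mean of PRXCA is not lower with TM in either mutant. AT4G36430, AT3G21770 and AT5G06730 rise in ire1a1b, and AT2G39040 and AT3G49960 are lowest in the mutants with TM.

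Fitted changes above zero numbered 0 in WT, 5 in ire1b and 13 in ire1a1b among the tested members. By call, 3 members fell in WT and rose in a mutant, a class for which the share of all genes is not given. AT4G36430 (chr4:17204385-17206033, minus strand) stood at 21, 18.6 and 23.1 CPM in WT with DMSO and at 8.15, 11 and 10.4 CPM with TM, a fall of 2.12-fold (log2 -1.08, SE 0.18, adjusted p = 0.00089). In ire1b it stood at 23, 20.7 and 20.8 CPM with DMSO and rose to 79.9, 59.1 and 85.8 CPM with TM (log2 1.8, SE 0.17, adjusted p = 1.5e-06). In ire1a1b it stood at 24.2, 27.6 and 28.8 CPM and rose to 106, 110 and 163 CPM (log2 2.24, SE 0.17, adjusted p = 1.8e-07). No TM library of a mutant came near a WT library. The responses differed from WT by 2.88 (SE 0.25, adjusted p = 5.1e-06) in ire1b and by 3.32 (SE 0.25, adjusted p = 7.8e-07) in ire1a1b, the largest positive interactions of the family, and those of the mutants differed by 0.44 (SE 0.24, adjusted p = 0.83). Its closest relative, AT2G18150, with an 82% identical protein, stayed between 3.78 and 12.5 CPM in all libraries and was not called in any comparison, with log2 changes of -0.57, -0.55 and -0.13 in WT, ire1b and ire1a1b; with the block set within each genotype the first 2 passed (adjusted p = 0.011 each).

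AT3G21770 (chr3:7673276-7674839, plus strand) had 58.8, 65.9 and 72.5 CPM in WT with DMSO and 49.2, 48.7 and 54.2 CPM with TM, a small fall (log2 -0.37, SE 0.1, adjusted p = 0.022). That call was lost without any of replicates 2 and 3 of WT with DMSO or 1 and 2 of WT with TM (adjusted p up to 0.1). In the mutants the gene rose, from 68.7, 75.3 and 59.1 CPM to 122, 125 and 108 CPM in ire1b and from 62.6, 71.4 and 74.3 CPM to 135, 141 and 131 CPM in ire1a1b. Neither pair of groups overlapped, and the responses differed from WT by 1.17 (adjusted p = 9.2e-05) and 1.34 (adjusted p = 1.7e-05). AT5G06730 (chr5:2079925-2081685, minus strand) was rarer, at 2.34, 3.05 and 2.69 CPM in WT with DMSO and 1.13, 1.76 and 1.12 CPM with TM (log2 -1, SE 0.23, adjusted p = 0.01, and 0.053 without replicate 3 of WT with TM). In ire1b it had 2.32, 2.32 and 2.82 CPM with DMSO and 3.2, 4.2 and 3.31 CPM with TM, which did not overlap but did not pass (log2 0.53, adjusted p = 0.096, and 0.03 with the block set within each genotype). In ire1a1b it rose from 3.64, 3.72 and 3.81 CPM to 10.2, 8.58 and 14.6 CPM (log2 1.58, SE 0.19, adjusted p = 2.5e-05), and the response differed from WT by 2.58 (SE 0.3, adjusted p = 5.1e-05) in ire1a1b and by 1.52 (SE 0.32, adjusted p = 0.01) in ire1b. Its neighbour PA2 (AT5G06720), 919 bases away with a 79.1% identical protein, stood between 1.78 and 5.11 CPM in WT and between 6.5 and 7.31 CPM in ire1a1b with TM, and its interaction of 1.06 did not pass (adjusted p = 0.083, and 0.015 with the block).

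The 250 bases before the annotated start of these genes, read from RefSeq TAIR10.1 on the strand of the gene (chr4:17206034-17206283 for AT4G36430, chr2:7893710-7893959 for AT2G18150, chr5:2081686-2081935 for AT5G06730, chr3:7673026-7673275 for AT3G21770), are shown because the responses of the 3 genes lay above that of WT in both mutants, with AT2G18150 as a close relative of AT4G36430 for which no such difference passed. Capitals mark TTGAC on either strand (GTCAA where it lies on the other strand), the core of the W-box bound by WRKY factors.
AT4G36430: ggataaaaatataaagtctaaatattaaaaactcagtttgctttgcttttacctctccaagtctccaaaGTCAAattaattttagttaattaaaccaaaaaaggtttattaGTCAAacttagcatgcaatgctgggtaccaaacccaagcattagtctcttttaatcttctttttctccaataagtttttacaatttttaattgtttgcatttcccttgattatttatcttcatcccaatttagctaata
AT2G18150: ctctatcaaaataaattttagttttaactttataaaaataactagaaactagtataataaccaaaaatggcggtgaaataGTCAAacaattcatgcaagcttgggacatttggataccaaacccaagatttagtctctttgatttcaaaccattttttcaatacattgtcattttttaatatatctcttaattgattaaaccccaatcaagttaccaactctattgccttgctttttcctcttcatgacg
AT5G06730: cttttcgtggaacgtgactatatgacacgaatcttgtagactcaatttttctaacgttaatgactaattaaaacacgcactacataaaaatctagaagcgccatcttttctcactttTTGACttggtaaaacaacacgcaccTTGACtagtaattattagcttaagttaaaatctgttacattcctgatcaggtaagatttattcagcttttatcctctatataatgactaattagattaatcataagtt
AT3G21770: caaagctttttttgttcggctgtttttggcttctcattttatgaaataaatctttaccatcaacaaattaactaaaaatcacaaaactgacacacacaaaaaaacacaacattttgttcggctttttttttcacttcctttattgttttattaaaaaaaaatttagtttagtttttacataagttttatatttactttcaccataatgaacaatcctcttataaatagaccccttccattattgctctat
The windows of AT4G36430 and AT5G06730 hold 2 matches each, that of AT2G18150 holds 1 and that of AT3G21770 holds 0. Of all 60 members 41.7% had the letters in this window, as had 45% of the windows of 26710 genes, so their presence describes the windows and no more.

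Of 4 listed root hair peroxidases 3 fell in WT, 4 in ire1b and 3 in ire1a1b, beside the 5.77%, 11.6% and 6.59% of all tested genes that fell. Among them, AT4G26010, RHS19 (AT5G67400) and RHS18 (AT5G22410), are known from root hair growth or root-hair-restricted expression. RHS19 stood at 24.8, 26.2 and 28.1 CPM in WT with DMSO and at 9.72, 7.77 and 9.43 CPM with TM (log2 -1.55, SE 0.13, adjusted p = 5.2e-07). In ire1b it fell from 34.8, 33.5 and 34.6 CPM to 5.32, 5.95 and 5.29 CPM (log2 -2.63, SE 0.14, adjusted p = 8.1e-10), and in ire1a1b from 30.2, 26.9 and 32 CPM to 9.23, 5.78 and 7.03 CPM (log2 -2, SE 0.13, adjusted p = 2.2e-08). None of these groups overlapped. The fall was deeper in ire1b than in WT by 1.08 (SE 0.19, adjusted p = 0.0024), while the difference of ire1a1b from WT, -0.45, did not pass (adjusted p = 0.2, and 0.019 without replicate 1 of ire1a1b with TM). RHS19 overlaps AT5G67410 on the opposite strand.

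AT4G26010 fell from 28.2, 34.3 and 32.1 CPM to 13.7, 9.17 and 10.3 CPM in WT (log2 -1.51), from 38.7, 37.7 and 42.6 CPM to 8.86, 8.74 and 7.97 CPM in ire1b (log2 -2.21) and from 36.5, 33 and 35.7 CPM to 10.3, 10.6 and 10.4 CPM in ire1a1b (log2 -1.75), with adjusted p of 2e-07, 1.3e-09 and 2.8e-08 in edgeR. Its ire1b difference from WT, -0.7 (adjusted p = 0.023), lost its call without replicate 1 of WT with DMSO or replicate 3 of ire1b with DMSO or with TM (adjusted p up to 0.069). This gene overlaps AT4G26020 on the opposite strand, and no source used here states a stranded count. RHS18 fell from 7.48, 7.11 and 9.26 CPM to 3.98, 2.94 and 2.75 CPM in WT, from 9.44, 9.11 and 7.78 CPM to 2.77, 2.65 and 2.27 CPM in ire1b, and from 10.6, 9.12 and 9.99 CPM to 3.63, 3.7 and 2.76 CPM in ire1a1b. Its log2 changes of -1.3, -1.77 and -1.56 all passed and none of the differences between genotypes did.

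The remaining root hair gene, AT1G05240, is counted only in part. Its coding sequence of 978 bases is identical to that of AT1G05250, which lies 2577 bases away on the opposite strand. Reads without a unique alignment were kept out of the gene counts, so reads wholly within that sequence would be missing from both genes. The shared start is printed for both to show that no read within it can tell them apart.
AT1G05240: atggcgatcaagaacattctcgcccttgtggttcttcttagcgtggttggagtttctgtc
AT1G05250: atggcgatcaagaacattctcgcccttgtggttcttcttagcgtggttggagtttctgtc
Both genes stayed at or below 1.48 CPM in every library, a level that leaves out reads placed equally well in both. AT1G05250 was called lower in all 3 genotypes (log2 -1.55, -1.75 and -1.77; the WT adjusted p of 0.0099 was 0.061 without replicate 3 of WT with TM), and AT1G05240 was called in ire1b and not in WT or ire1a1b (log2 -1.61, adjusted p = 0.042), a call lost without any of 8 libraries (adjusted p from 0.05 to 0.28): replicate 2 of WT with DMSO or TM, replicate 1 of ire1b with DMSO, replicates 1 and 3 of ire1b with TM, and all 3 of ire1a1b with TM.

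Root hair markers that are not peroxidases moved with these genes. The summed level of 4 such markers was 20.3 to 24.4 CPM in WT with DMSO and 9.57 to 12.1 CPM with TM, 24 to 25.3 and 8.86 to 10.2 CPM in ire1b, and 24.6 to 26.5 and 8.78 to 10.9 CPM in ire1a1b. Of the 4, 3 fell in WT and 4 in each mutant, beside 5.77%, 11.6% and 6.59% of all tested genes in WT, ire1b and ire1a1b. In each mutant's interaction with WT 1 marker was called lower, beside 1.6% of all genes for ire1b and 2.43% for ire1a1b. No marker was at 0 in a group. The part of these markers in the peroxidase result was not tested.

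A list of 9 members covered lignin and the Casparian strip, the lignin barrier of the root endodermis. Of these 9, 5 fell in WT, 4 in ire1b and 3 in ire1a1b, beside 5.77%, 11.6% and 6.59% of all tested genes. The rest did not pass. The list may leave out other members with such roles. In the interaction of ire1a1b with WT 1 of the 9 was lower and 2 were higher, beside 2.43% and 3.7% of all tested genes. PER64 (AT5G42180), which polymerises lignin in the Casparian strip, stood at 15, 14.6 and 14.3 CPM in WT with DMSO and at 11.9, 9.03 and 8.47 CPM with TM; these groups did not overlap but the change did not pass (log2 -0.58, SE 0.24, adjusted p = 0.15). It fell from 15.3, 14.2 and 15.1 CPM to 3.46, 3.45 and 7.68 CPM in ire1b (log2 -1.63, adjusted p = 0.00025) and from 13.7, 14.9 and 14.9 CPM to 3.23, 5.78 and 5.77 CPM in ire1a1b (log2 -1.57, adjusted p = 0.00048). The interactions, -1.05 and -0.99, did not pass (adjusted p = 0.14 and 0.13). Replicate 3 of ire1b with TM, the highest of its group, decided these calls: without it the WT fall (adjusted p = 0.037) and both interactions (-1.53 with adjusted p = 0.004, and -0.99 with adjusted p = 0.024) passed. AT1G44970, another Casparian strip peroxidase, had 4.15, 4.7 and 5.38 CPM in WT with DMSO and 3.39, 3.07 and 2.55 CPM with TM (adjusted p = 0.18). In the mutants it fell to 0.692, 1.35 and 2.21 CPM in ire1b and to 0.449, 1.18 and 1.02 CPM in ire1a1b, from DMSO values of 3.89 to 6.54 CPM. Its response was lower in ire1a1b than in WT by 1.92 on the log2 scale (SE 0.45, adjusted p = 0.018), a call lost without replicate 1 of ire1a1b with TM (adjusted p = 0.053) and without the 4 replicate 1 libraries (adjusted p = 0.12). PER64 overlaps AT5G42190 on the opposite strand.

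The summed level of 7 endodermis markers was 32.8 to 35.8 CPM in WT with DMSO and 17 to 22.1 CPM with TM. It was 28.9 to 33.5 and 11.8 to 16.9 CPM in ire1b, and 35.6 to 35.9 and 12.2 to 17.8 CPM in ire1a1b. With TM the ire1b libraries lay below those of WT and the ire1a1b libraries overlapped them. Of the 7, 5 fell in WT and 4 in each mutant, beside 5.77%, 11.6% and 6.59% of all tested genes in WT, ire1b and ire1a1b. None of the markers was called in an interaction and none was at 0. Their part in the result for PER64 and AT1G44970 was not tested.

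AT5G51890 and AT4G33420, peroxidases tied to lignifying xylem, were the 2 members of the lignin list with a higher response in ire1a1b. AT5G51890 stood at 26.7, 27.9 and 29.2 CPM in WT with DMSO and at 16.7, 18.6 and 16.5 CPM with TM (log2 -0.69, SE 0.09, adjusted p = 4.8e-05). In ire1b it had 27.6, 30 and 30.5 CPM with DMSO and 24.6, 29.8 and 25.3 CPM with TM. In ire1a1b it had 27.6, 32.4 and 32 CPM with DMSO and 31.5, 34.1 and 32.4 CPM with TM. Only the WT groups were separate, and the response differed from WT by 0.55 (SE 0.12, adjusted p = 0.014) in ire1b and by 0.78 (SE 0.12, adjusted p = 0.00065) in ire1a1b. AT4G33420 went from 106, 144 and 163 CPM to 66.1, 81.6 and 85.4 CPM in WT (log2 -0.83, adjusted p = 0.0062). In ire1b it went from 140, 144 and 179 CPM to 106, 114 and 124 CPM, groups that did not overlap (log2 -0.42, adjusted p = 0.11, and 0.00089 with the block). In ire1a1b it went from 105, 145 and 155 CPM to 117, 156 and 153 CPM in ire1a1b. Its interaction of 0.9 (SE 0.25, adjusted p = 0.044) kept its call with the replicate block (adjusted p = 7e-05) and without the 4 replicate 1 libraries (0.93, adjusted p = 0.001). Without the block it lost its call when any of 14 single libraries was left out (adjusted p from 0.053 to 0.12), all but replicate 1 of WT with DMSO, replicate 1 of ire1a1b with TM and replicate 3 of both mutants with DMSO. AT5G51890 overlaps AT5G51880 and AT4G33420 overlaps AT4G33430, both on the opposite strand.

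Among the other members of the lignin list, AT5G66390 fell in WT from 21.5, 22.6 and 24.6 CPM to 10.4, 12.6 and 10.7 CPM (log2 -1.02, SE 0.2, adjusted p = 0.0031 in edgeR). In the mutants its changes of -0.48 and -0.33 did not pass, the first passing with the block (adjusted p = 0.02). AT5G64120, the second most abundant member and one that affects wall lignin content, had 275, 652 and 713 CPM in WT with DMSO and 122, 250 and 219 CPM with TM. Its WT fall (log2 -1.47, SE 0.45, adjusted p = 0.044) was lost without any of 11 libraries (adjusted p from 0.052 to 0.15), which were replicates 2 and 3 of WT with DMSO, all 3 of WT with TM, replicates 1 and 2 of ire1b with DMSO or TM, and replicate 3 of ire1a1b with DMSO or TM. In ire1b it fell from 597, 627 and 1160 CPM to 118, 151 and 213 CPM (log2 -2.31, SE 0.46, adjusted p = 0.0017), and in ire1a1b the change of -1.09 did not pass (adjusted p = 0.12). That change passed with the block (adjusted p = 0.015), without the 4 replicate 1 libraries (-1.25, adjusted p = 0.036) and without replicate 1 of ire1a1b with DMSO alone (-1.44, adjusted p = 0.033). AT2G22420 fell in both mutants, from 9.34, 10.3 and 11.3 CPM to 7.31, 6.7 and 6.74 CPM in ire1b (log2 -0.57, adjusted p = 0.00036) and from 10, 11.1 and 11.3 CPM to 6.17, 7.52 and 7.23 CPM in ire1a1b (log2 -0.63, adjusted p = 0.00021), and 0 of 26 alternatives ended either call. In WT it went from 9.5 to 10.5 CPM in WT with DMSO to 7.85 to 8.44 CPM with TM, and its WT call (log2 -0.3, adjusted p = 0.048) was lost in 17 of 26 alternatives, among them the omission of any WT library (adjusted p up to 0.16). PRX52 (AT5G05340) at 0.768 to 1.55 CPM in WT and AT2G41480 at 2.1 to 4.9 CPM in WT were not called in any comparison. Without replicate 2 of ire1b with TM the ire1b change of PRX52 passed (adjusted p = 0.032).

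Among members with no role list, PRXR1, the most abundant, stood at 898, 999 and 1060 CPM in WT with DMSO and at 471, 518 and 519 CPM with TM, a fall of 1.96-fold (log2 -0.97, SE 0.11, adjusted p = 1.3e-05). Its TM values were 723, 767 and 665 CPM in ire1b and 696, 895 and 830 CPM in ire1a1b, beside 1020 to 1050 and 861 to 1070 CPM with DMSO. The fall was smaller in ire1a1b than in WT by 0.69 (SE 0.15, adjusted p = 0.01). The fall within ire1a1b, -0.29, passed with the replicate block (adjusted p = 0.014).

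The tandem genes AT4G37520 and AT4G37530, 1446 bases apart with proteins 89.4% identical, both fell in WT and ire1b and were not called in ire1a1b. AT4G37520 went from 104, 107 and 130 CPM to 59.6, 54.2 and 45.1 CPM in WT and from 115, 131 and 107 CPM to 101, 97.5 and 92.3 CPM in ire1a1b, an interaction of 0.82 (SE 0.18, adjusted p = 0.011). AT4G37530 went from 37.2, 64.8 and 56.8 CPM to 30.3, 31.3 and 23.2 CPM in WT and from 49.5, 76.4 and 62.3 CPM to 45.2, 59.6 and 49.6 CPM in ire1a1b, where the interaction of 0.62 did not pass (adjusted p = 0.24, and 0.027 without the 4 replicate 1 libraries). The first 60 coding bases of the pair differ at 7 positions, in capitals, and the longest identical coding run is 67 bases, so reads of either gene could be placed.
AT4G37520: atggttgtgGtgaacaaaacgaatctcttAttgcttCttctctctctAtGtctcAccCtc
AT4G37530: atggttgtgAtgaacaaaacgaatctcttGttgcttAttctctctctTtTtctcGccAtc
AT4G11290 fell in WT from 66.2, 90.4 and 104 CPM to 47.1, 53.4 and 53.9 CPM and stood at 106, 116 and 125 CPM in ire1a1b with TM, beside 91.5 to 113 CPM with DMSO (interaction 0.94, SE 0.18, adjusted p = 0.005). AT5G17820 fell from 52.2, 56.1 and 58.7 CPM to 30.8, 28.5 and 31.4 CPM in WT and stood at 45.4, 50.5 and 45.3 CPM in ire1a1b with TM, beside 51.6 to 61.8 CPM with DMSO (interaction 0.58, SE 0.12, adjusted p = 0.0066). Its small fall within ire1a1b lost its call without replicate 1 or 3 of either ire1a1b group (adjusted p up to 0.11).

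A pair of members without a role list fell further in the mutants. AT2G39040 stood at 6.91, 9.07 and 9.32 CPM in WT with DMSO and at 1.82, 1.4 and 1.73 CPM with TM (log2 -2.35, SE 0.19, adjusted p = 3e-07). In ire1b it fell from 7.18, 9.35 and 9.03 CPM to 0.346, 0.6 and 0.523 CPM (17.4-fold, log2 -4.12, SE 0.23), and in ire1a1b from 7.61, 7.66 and 5.49 CPM to 0.408, 0.28 and 0.291 CPM (20.5-fold, log2 -4.36, SE 0.24). Every mutant TM library lay below every WT TM library, and the responses differed from WT by -1.77 (adjusted p = 0.0029) and -2.01 (adjusted p = 0.0013). AT3G49960, 81.2% identical to RHS19, fell from 14.3, 15.4 and 17 CPM to 6.92, 6.41 and 8.41 CPM in WT. It fell from 18, 16.8 and 18.9 CPM to 2.03, 3.55 and 3.95 CPM in ire1b and from 16.1, 18.1 and 17.1 CPM to 4.08, 3.53 and 2.52 CPM in ire1a1b. The responses differed from WT by -1.41 (SE 0.26, adjusted p = 0.0048) and -1.23 (SE 0.26, adjusted p = 0.0089).

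Some members fell further in ire1b than in WT. RCI3, a gene first found as cold-inducible, stood at 55, 73.1 and 65 CPM in WT with DMSO and at 46.8, 51.9 and 43.7 CPM with TM (log2 -0.44, adjusted p = 0.15, and 0.019 with the block). It fell from 79.7, 81.7 and 67.6 CPM to 21.2, 24.4 and 17.7 CPM in ire1b (log2 -1.85, SE 0.19, adjusted p = 2.9e-06) and from 55.6, 74.8 and 66.1 CPM to 19.4, 34.8 and 23.9 CPM in ire1a1b (log2 -1.34, SE 0.19, adjusted p = 0.00011). Its difference from WT was -1.41 in ire1b (adjusted p = 0.0042) and -0.9 in ire1a1b (adjusted p = 0.055, and 0.0025 with the block). AT5G64100 went from 190, 203 and 264 CPM to 129, 127 and 166 CPM in WT, which did not overlap but did not pass (adjusted p = 0.16, and 0.019 without replicate 3 of ire1b with DMSO, the library at 480 CPM that follows). It fell from 191, 220 and 480 CPM to 41.8, 49 and 40.4 CPM in ire1b (log2 -2.76, SE 0.29, adjusted p = 4.3e-06), and went from 177, 251 and 227 CPM to 110, 147 and 127 CPM in ire1a1b (log2 -0.77, adjusted p = 0.074, and 0.033 with the block). The ire1b response differed from WT by -2.12 (SE 0.39, adjusted p = 0.0042). The difference of ire1a1b from ire1b, 1.99 (adjusted p = 0.023), was lost without any of 6 libraries, namely replicates 1 and 3 of ire1b with TM, 1 and 3 of ire1a1b with DMSO and 2 and 3 of ire1a1b with TM (adjusted p up to 0.078). Its neighbour AT5G64110, with a 64.8% identical protein, stood between 18 and 43.7 CPM in all libraries and was not called.

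AT4G30170 fell from 155, 146 and 167 CPM to 76.7, 57.1 and 69.7 CPM in WT, from 152, 138 and 157 CPM to 36.1, 37.1 and 36.6 CPM in ire1b and from 167, 123 and 164 CPM to 71, 69.7 and 67.2 CPM in ire1a1b. The ire1b fall was deeper than that in WT by 0.83 (SE 0.16, adjusted p = 0.0059) and the ire1a1b response lay 0.9 above that of ire1b (SE 0.16, adjusted p = 0.01). AT1G34510 and AT5G19890 were also among the deepest falls in ire1b. AT1G34510 fell from 8.14, 6.7 and 8.33 CPM to 2.7, 2.12 and 2.14 CPM in WT, from 9.97, 7.64 and 8.65 CPM to 1.12, 1.2 and 1.1 CPM in ire1b and from 10.1, 6.73 and 9.35 CPM to 2, 1.29 and 1.31 CPM in ire1a1b. Its ire1b difference from WT, -1.2 (adjusted p = 0.023), was lost without any of 5 libraries, replicate 2 of WT with DMSO and replicate 1 of WT with TM, of ire1b with DMSO and of ire1b with TM, and replicate 3 of ire1b with TM (adjusted p up to 0.067). AT5G19890 varied more, from 36.2, 56.2 and 95.7 CPM to 15.2, 27 and 33.8 CPM in WT, from 60.4, 60.1 and 98.3 CPM to 9.34, 12.1 and 8.95 CPM in ire1b and from 87.9, 61 and 107 CPM to 38, 23.4 and 17.7 CPM in ire1a1b. Its WT fall (adjusted p = 0.036) was lost without any of replicates 2 and 3 of WT with DMSO or 1 and 2 of WT with TM (adjusted p up to 0.18), and AT5G19880 beside it was at or below 0.133 CPM.

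AT2G37130 fell in all genotypes. It went from 192, 113 and 142 CPM to 57.8, 31 and 28.4 CPM in WT. In ire1b it went from 115, 113 and 103 CPM to 29.9, 27.4 and 17.6 CPM, and in ire1a1b from 149, 89.4 and 96.1 CPM to 44.1, 35.2 and 27.1 CPM. Its differences from WT were -0.21 (SE 0.41) in ire1b and 0.28 (SE 0.41) in ire1a1b, and neither passed. With errors of this size, equal falls were not shown. The neighbours PER4 (AT1G14540) and AT1G14550, 71.3% identical, were the most variable members, PER4 ranging from 17.1 to 94.2 CPM within ire1b with DMSO, and no change of either passed in the fit without a block. The fall of AT1G14550 in ire1b (log2 -2.35, adjusted p = 0.082) passed with the block (-2.24, adjusted p = 0.034) and with DESeq2 (-2.36, adjusted p = 0.03). AT5G58390 had 6.66, 14.2 and 9.52 CPM in WT with DMSO and 4.08, 7 and 5.3 CPM with TM (adjusted p = 0.074, and 0.0039 with the block), while its neighbour AT5G58400 was at or below 0.164 CPM. AT5G39580, the third most abundant per kilobase, AT5G40150, AT2G34060 and AT1G68850 were not called in any comparison of the main edgeR fit, which has no block. With the block set within each genotype AT1G68850 passed in edgeR for the WT fall (-0.62, adjusted p = 0.019). Its interaction of ire1a1b with WT passed there too (0.88, adjusted p = 0.024).

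AT1G30870, AT2G18980, AT3G01190 and AT5G15180 fell in all 3 genotypes, with log2 changes in WT between -0.94 and -0.73 and in ire1b between -1.71 and -1.46. The ire1b fall was deeper than that in WT for AT3G01190 (-0.99, SE 0.22, adjusted p = 0.017, and 0.11 without the 4 replicate 1 libraries) and for AT2G18980 (-0.83, SE 0.19, adjusted p = 0.018), the latter lost without replicate 2 of WT with TM or replicate 1 of ire1b with DMSO or TM (adjusted p up to 0.064). AT2G35380 and AT1G49570 fell in WT and ire1b. The WT call of AT1G49570 (adjusted p = 0.034) was lost without replicate 2 or 3 of WT with DMSO or replicate 1 or 2 of WT with TM (adjusted p up to 0.12). AT1G71695, AT3G28200 and AT5G14130 fell in WT only by call, with log2 changes of -0.64, -0.48 and -0.99, and their interactions with ire1a1b (0.57, 0.6 and 0.86) did not pass (adjusted p = 0.1, 0.058 and 0.071) but did with the replicate block (adjusted p = 0.012, 0.0033 and 0.037). Some fits without a block also passed them, such as DESeq2 for AT3G28200 (adjusted p = 0.027), the fit without the 4 replicate 1 libraries for AT1G71695 (adjusted p = 0.025) and that without replicate 2 of WT with DMSO for AT5G14130 (adjusted p = 0.018). With the block the ire1a1b interactions of AT1G30870 (-0.54), AT1G34510 (-0.76), AT2G18980 (-0.61), AT2G35380 (0.48) and AT5G66390 (0.68) passed as well. The WT call of AT3G28200 (adjusted p = 0.019) was lost without replicate 2 or 3 of either WT group (adjusted p up to 0.077). AT1G30870 and AT5G14130 each overlap a gene on the opposite strand.

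In the absence of TM no difference of a member between genotypes passed. Among the 55 tested members 0 were called in ire1a1b against WT, in ire1b against WT or in ire1a1b against ire1b with edgeR, beside 0.131%, 0.0291% and 0.16% of all tested genes called in either direction. At an unadjusted p below 0.05 lay 2, 4 and 3 members in edgeR. DESeq2 also called 0 in each, with 3 at an unadjusted p below 0.05 in each. These unadjusted counts are given without the share of all genes and are not read as differences. Fitted differences from WT ran from -0.42 to 1.01 on the log2 scale in ire1a1b and from -0.7 to 1.09 in ire1b. The lowest adjusted p in edgeR was 0.88. These differences lay above zero for 42 of the 55 members in ire1a1b and for 41 in ire1b. Their median was 0.11 in each mutant, beside -0.002 and -0.001 over all tested genes, a lean that was not tested. Differences of moderate size in the scarce or variable members were not detectable with 3 libraries a group.

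The members share a compact gene structure and a secretory protein. They lie on all chromosomes, 20 of them on chromosome 5, and 40 of the 60 have 4 exons. The encoded proteins are 310 to 372 residues long with a median identity of 37.5% over 1770 pairs. N-glycosylation sequons (N, any residue but P, then S or T) numbered 1 to 11 per protein with a median of 2, and 0 members had none, AT5G06730 having the most. Across the 55 tested genes, which are not independent, the number of sequons had a Pearson correlation of -0.07 with the log2 change in WT and of 0.36 with the interaction of ire1a1b, the Spearman values being -0.01 and 0.31; close copies share their sequons. Messenger RNAs with CTGCAG, the letters at an IRE1 cleavage site of animal XBP1, numbered 16.7% of the members and 30.2% of all genes, with 0 of the 18 members that fell in WT and not by call in ire1a1b and 6 of the 19 that fell in all genotypes. In the windows upstream, read on both strands, CACGTG (the G-box) occurred in 0 members and 6.58% of all genes, TGACGT in 11.7% and 7.71%, and CCACG in 16.7% and 15%. The G-box holds the core ACGT, which TGACGT shares. A match to such letters is not a bound site.

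Genes that supply or accompany the peroxidases were followed as lists. The NADPH oxidases (RBOH), which make the superoxide from which apoplastic hydrogen peroxide forms, had 8 of 10 genes tested. In WT only RBOHB rose (log2 2.56, SE 0.12, adjusted p = 3.9e-10) and 0 fell. In ire1b RBOHB rose by 2.71 and 6 fell. In ire1a1b 2 fell and RBOHB was not called, an interaction with WT of -2.52 (SE 0.17, adjusted p = 2.6e-07 in edgeR). Over all tested genes 5.77%, 11.6% and 6.59% fell in WT, ire1b and ire1a1b, and 6.13%, 10.9% and 8.27% rose. Of 18 genes of monolignol synthesis, which make the substrates of lignin peroxidases, 4 fell in WT, 13 in ire1b and 6 in ire1a1b, with none rising, while 5.77%, 11.6% and 6.59% of all tested genes fell. The ire1b response was called lower than that of WT in 1 of these 18 genes, beside 1.6% of all tested genes. Laccases, the copper oxidases that also polymerise lignin, had 3 of 16 tested genes lower in WT, 2 lower in ire1b, and 1 lower and 2 higher in ire1a1b, and the shares lower in the mutants were near those of all genes. The class I ascorbate peroxidases, which work inside the cell and are no members of the secretory family, had 0 of 7 tested genes called by edgeR in each TM comparison, 0 also at an unadjusted p below 0.05, with medians of -0.02, 0 and -0.07. Of 5 green shoot markers edgeR called none in any comparison, with summed levels of 4030 to 6380 CPM in WT with DMSO and 4020 to 6030 CPM with TM.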

How the data were processed

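PolyA RNA of whole seedlings was sequenced as paired-end 250 nt libraries. The deposited values are read counts per gene, one file per library; per the submitters' processing notes the tools were STAR 2.4.0, HTSeq 0.6.0 and DESeq2 with the TAIR10 genome, and strand settings are not given in the sources used here. Rows that name no gene stayed out of library sizes. Reads in no feature came to between 1.202% and 1.419%, and ambiguous reads to between 1.094% and 1.231%. Reads without a unique alignment came to between 3.331% and 3.713%. Library totals were 16347549 to 24848852 counts, so a member at 1 CPM rests on few reads.

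Counts were fitted with edgeR 4.0.16 (R 4.3.3): filterByExpr, TMM factors, robust quasi-likelihood, 1 mean per group over all 18 libraries, 9 comparisons, and Benjamini-Hochberg adjustment over all 20615 tested genes at 0.05. The fit was tested on simulated counts. CPM are divided by TMM-scaled library sizes; lengths, names, sequences and coordinates come from RefSeq TAIR10.1 (26719 of 27416 identifiers matched). Upstream sequences are 250 bases. Alternatives were RLE scaling, DESeq2 1.42.0, other filters, fits on the compared groups alone, replicate blocks, and omitted libraries. The replicate block was shared by all 18 libraries except where it is said to be set within each genotype. Same-numbered libraries deviated together (correlations over 0.1 in every pair) for TM within each genotype (0.15 to 0.72 overall), for ire1a1b against WT in DMSO and for their interaction (0.34 to 0.84); the numbers come from the sample titles.

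Values in every library are given for the role lists, the deepest called changes, all members called in the ire1a1b interaction, and neighbouring genes. The members, lists and rules were chosen with earlier results of these data known. Of 75 genes with a peroxidase product name, 15 were not on the list and are not analysed here.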

Additional observations from a re-analysis of the deposited data

Results flagged for a closer look

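The values below are members whose response to TM differed between genotypes by the interaction term in edgeR, on the log2 scale, at an adjusted p below 0.05 over all tested genes. Single libraries on which some of them rest are named with the genes above.

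In ire1a1b the response lay above that of WT for AT2G38380 (0.89), AT2G38390 (1.63), AT3G21770 (1.34), AT3G32980 (1.37), PRXCB (2.03), AT4G11290 (0.94), PRXR1 (0.69), AT4G33420 (0.9), AT4G36430 (3.32), AT4G37520 (0.82), AT5G06730 (2.58), AT5G17820 (0.58) and AT5G51890 (0.78). It lay below that of WT for AT1G44970 (-1.92), AT2G39040 (-2.01) and AT3G49960 (-1.23).

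In ire1b the response lay above that of WT for AT2G38390 (1.75), AT3G21770 (1.17), AT3G32980 (0.56), PRXCB (0.83), AT4G36430 (2.88), AT5G06730 (1.52) and AT5G51890 (0.55). It lay below that of WT for RCI3 (-1.41), AT1G34510 (-1.2), AT2G18980 (-0.83), AT2G39040 (-1.77), AT3G01190 (-0.99), AT3G49960 (-1.41), AT4G26010 (-0.7), AT4G30170 (-0.83), AT5G64100 (-2.12) and RHS19 (-1.08).

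In ire1a1b the response lay above that of ire1b for AT2G38380 (0.99), AT3G32980 (0.81), PRXCB (1.2), AT4G30170 (0.9) and AT5G64100 (1.99). The 3 comparisons share libraries, so a member that appears in more than one of them is not counted as separate evidence.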

How the results depend on the processing

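Of 135 called member comparisons, 106 kept their call under every one of up to 26 alternatives, 29 lost it under at least 1, and none changed sign. RLE scaling, DESeq2 and the other filters kept the total count of called members in each comparison within 1.5 times; by direction, DESeq2 called 5 members lower in ire1a1b than in WT in place of 3. With each comparison fitted on its own groups, 3 members in place of 5 differed between ire1a1b and ire1b, and the class that fell in WT and was not called in ire1a1b held 10 in place of 18. With the replicate block 28 members in place of 16 differed between ire1a1b and WT, and 31 with the block set within each genotype. The replicate block also raised the share of all genes called lower with TM, so this gain is not read as one of the family alone. Shares of all genes are not given beside the alternative counts here, so they show only how far the calls moved. For ire1a1b against ire1b, where replicate numbers do not pair the libraries (lowest correlation 0.01), the block gave 8 and the block within each genotype 10. For ire1b against WT, also unpaired (lowest correlation 0.05), the block gave 21 in place of 17. The block within each genotype was not run for the DMSO comparisons, where it coincides with genotype. Leaving out 1 library gave between 31 and 38 called members for TM within WT, between 32 and 36 within ire1b and between 24 and 27 within ire1a1b. The interactions gave 15 to 19 for ire1a1b against WT, 13 to 17 for ire1b against WT, 2 to 6 for ire1a1b against ire1b and 0 in each DMSO comparison; the class of 18 ranged from 14 to 19 and the class that fell in all genotypes from 17 to 21. Members below about 1 CPM rest on few reads, and 3 libraries a group limit what can be detected for the variable ones.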
